A study of Mus musculus with 6 samples.

Results

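The 3 voltage-dependent anion channels, Vdac1, Vdac2 and Vdac3, and the inner-membrane scaffold Phb2 were followed in whole hearts of wild-type and Pgc1b knockout mice. The probe sets were chosen by gene symbol. They are those with values in the deposited table whose only symbol in the platform's annotation is 1 of these 4. This rule uses no difference between the genotypes, but the 4 genes were chosen with earlier results of these data known. Each gene had 1 such probe set, so 4 of the 643 gene probe sets with values, and 4 of the 494 genes they cover, are described. The annotation lists 5 probe sets for Vdac1, 4 for Phb2 and 1 each for Vdac2 and Vdac3, and the further ones for Vdac1 and Phb2 were not analysed here. The series holds 6 Affymetrix arrays, each of 1 heart, with 3 wild-type and 3 Pgc1b knockout hearts that the labels describe as biological replicates. All mice were on a mixed background of sv129 and C57BL/6, the knockout hearts carried no other stated allele, and neither group is labelled with a treatment. Age is not stated in the sources used here. The labels name no promoter or Cre for the knockout. Hearts were taken whole, so each array holds the RNA of all cardiac cell types.

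VDAC proteins are barrel-shaped pores of the outer mitochondrial membrane, through which ATP, ADP, phosphate and respiratory substrates pass between the cytosol and the space between the membranes. Heart muscle depends on this exchange for the supply of ATP to contraction and ion pumping. Phb2 forms ring-shaped assemblies with its partner prohibitin in the inner membrane, where they hold lipids and proteases in place and help to keep the cristae in shape. Pgc1b, named Ppargc1b in current tables, assists nuclear receptors, the oestrogen-related receptors among them, in switching on genes of mitochondrial metabolism. The comparison of genotypes asks how membrane proteins of mitochondria that stand outside the respiratory chain were expressed without it.

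The values are log2 signals made with RMA, which sets all arrays to 1 common distribution, so each difference is relative to the other genes on the array. Array medians lay between 7.45 and 7.61. Ppargc1b itself was not analysed here, which leaves the genotypes as labelled, without a check on the targeted transcript. Of 14 heart muscle markers 2 were measured. The cardiac actin Actc1 was at 14.09 to 14.15 in wild-type and 14.11 to 14.13 in knockout hearts. The gap junction gene Gja1 was at 10.56 to 10.82 and 10.57 to 10.91, and a dimmer probe set of it was lower in knockout hearts, with a difference of -0.100. Of the marker lists of other cell types, 1 of 7 endothelial, 1 of 8 macrophage and leukocyte and 2 of 6 red cell markers were measured. Their summed log2 signals ran from 7.60 to 7.73 in wild-type and 7.48 to 7.74 in knockout hearts for endothelium. For leukocytes they ran from 3.45 to 3.54 and 3.49 to 3.74. For red cells the sum of 2 log2 values, which is no signal level, ran from 11.19 to 11.60 and 11.46 to 12.09. The red cell marker Bpgm alone read 7.20 to 7.70 in wild-type and 7.37 to 8.06 in knockout hearts. Its difference was 0.31 (interval -0.14 to 0.77, adjusted p = 0.598 in limma over the genes), with overlap of the genotypes. A dimmer probe set of Bpgm differed by 0.464. The leukocyte signal and that of the other red cell marker (3.68 to 4.10) were dim beside the array medians, so they say little of cell content. Whether blood content differed between the hearts was not tested. Markers of fibroblasts, smooth muscle, fat, skeletal muscle and nerve were not analysed here. In whole hearts fewer cells of a type and less RNA per cell cannot be told apart.

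All 4 genes had lower means in knockout hearts, Phb2 and Vdac2 without overlap of the genotypes, and 0 of the 4 passed the test. The test was limma over all 643 probe sets, with a call at a Benjamini-Hochberg adjusted p under 0.05. It called 0% of the probe sets, with 66 at an unadjusted p under 0.05 (10.3%), and the smallest adjusted p was 0.202. Phb2 and Vdac2 were among those 66, of which the ones with lower knockout means made up 4.98% of all probe sets. Of the 643 probe sets, 18.7% had no overlap of the groups in either direction and 9.02% had all knockout values below all wild-type values, against 2 of the 4 genes here. The median difference of the 4 genes was -0.15, beside 0.01 over all probe sets, of which 45.7% had a lower mean in knockout hearts. Since the 4 genes were chosen with earlier results known, these shares are a background and not a test of them. All 4 belong to the brighter probe sets, with mean levels between percentiles 86.5 and 94.4 of the 643.

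Phb2, the prohibitin, had the widest gap between the genotypes. Its probe set, 1416202_at, was at 10.12, 10.13 and 10.18 in wild-type hearts 1 to 3 and at 9.89, 9.76 and 9.94 in knockout hearts 1 to 3. Every knockout heart lay below every wild-type heart, with 0.17 between the lowest wild-type and the highest knockout value. The means were 10.14 ± 0.03 and 9.86 ± 0.10 (SD, n = 3 each), a difference of -0.28 (95% interval -0.45 to -0.10), and a knockout level of 82.6% of wild type (73% to 93.4%). The adjusted p in limma was 0.363 over the 643 probe sets and 0.342 over the 494 genes. Its difference was the 21st lowest of the 643. The difference of the means was larger than the SD of either genotype but did not pass over all probe sets.

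Vdac2, the pore form known for binding the cell-death factor Bak, was next. Its probe set, 1415990_at, read 11.81, 11.79 and 11.90 in the wild-type hearts and 11.59, 11.67 and 11.72 in the knockout hearts. Again no knockout heart reached the lowest wild-type heart, but the margin was 0.07, narrower than for Phb2. The means were 11.84 ± 0.06 and 11.66 ± 0.06 (SD, n = 3 each), a difference of -0.18 (95% interval -0.35 to -0.01), or 88.4% of wild type. The adjusted p in limma was 0.46 over the probe sets and 0.383 over the genes.

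Vdac3, the third form of the pore, varied little among hearts of either genotype. Its signal (probe set 1416175_a_at) was 11.26, 11.23 and 11.17 in wild-type and 11.16, 11.20 and 11.06 in knockout hearts. The groups overlapped, since knockout heart 2 lay above wild-type heart 3. The difference of the means, 11.22 ± 0.05 and 11.14 ± 0.07 (SD, n = 3 each), was -0.08 (95% interval -0.25 to 0.09, adjusted p = 0.695 in limma), which allows a knockout level from 84.1% to 106% of wild type. The RefSeq gene table lists a pseudogene, Vdac3-ps1, and whether it adds to this signal was not tested.

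Vdac1, generally the main form of the pore in mammalian tissues and a docking site for hexokinase, differed more between hearts of 1 genotype than between genotypes. Its signal (probe set 1415998_at) was 11.15, 10.77 and 11.07 in wild-type and 10.43, 10.92 and 11.26 in knockout hearts. Knockout hearts held both the highest and the lowest value of the 6, a range of 0.83, where the range was 0.31 for Vdac2, 0.20 for Vdac3 and 0.42 for Phb2. The means were 10.99 ± 0.20 and 10.87 ± 0.42 (SD, n = 3 each), a difference of -0.12 (95% interval -0.61 to 0.36, adjusted p = 0.843 in limma), so that anything from 65.6% to 128% of wild type lies within the interval. Without knockout replicate 1 the difference was 0.10, and without knockout replicate 3 it was -0.32.

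**Figure D1:**
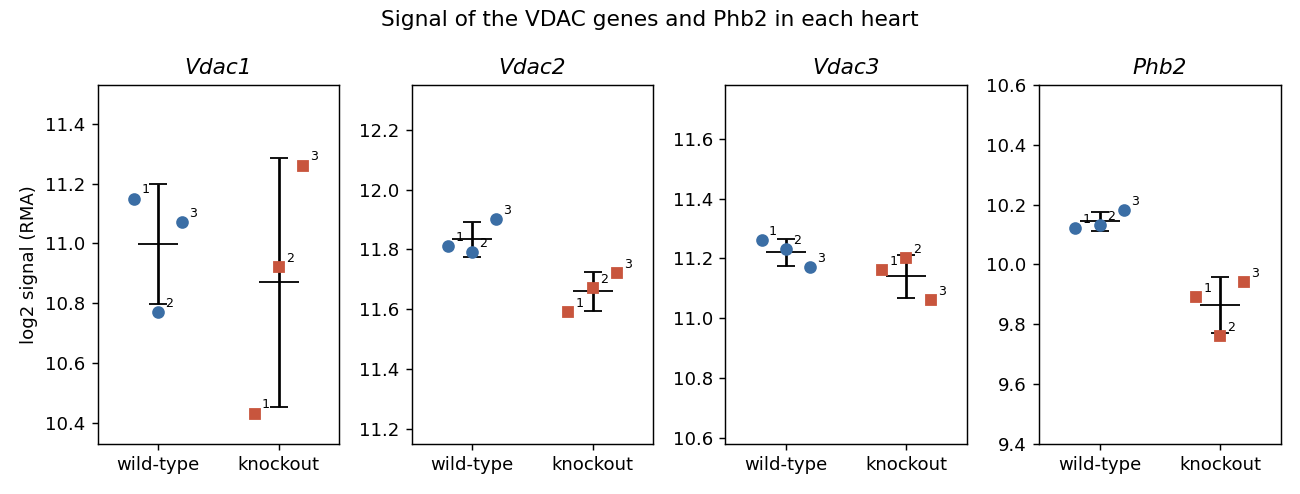
Log2 signal (vertical axis, the same span in each panel) of the 4 genes in wild-type (circles) and knockout hearts (squares), with replicate numbers beside the points, the mean as a horizontal bar and the SD as error bars (n = 3). Knockout hearts lie below all wild-type hearts for Phb2 and Vdac2, and Vdac1 spreads from 10.43 to 11.26.

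**Figure D2:**
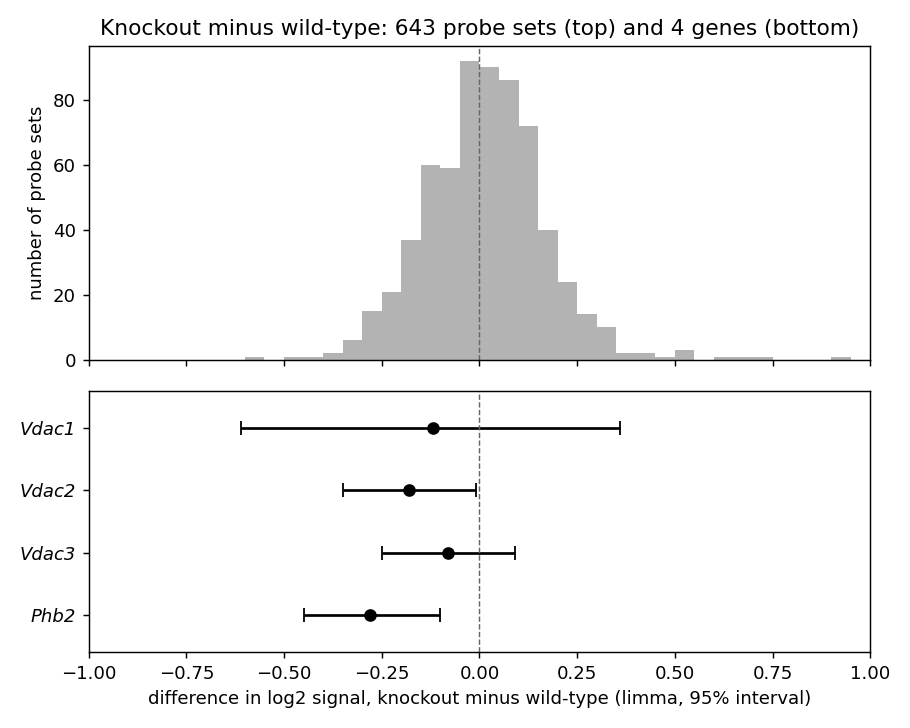
Difference in log2 signal, knockout minus wild-type, as a histogram of the 643 probe sets (top) and for the 4 genes with 95% intervals from limma (bottom). The interval of Vdac1, from -0.61 to 0.36, is the widest of the 4, and those of Phb2 and Vdac2 end below 0 at -0.10 and -0.01.

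Vdac1 stood apart from the other pores in its spread between hearts. The SD within genotypes, pooled over both, was 0.33 for Vdac1, at percentile 95.3 of the 643 probe sets, whereas it was 0.06 for Vdac2 and Vdac3, at percentiles 13.5 and 14.2, and 0.07 for Phb2. The median over all probe sets was 0.12. Vdac1 ran against the poly-A spikes, foreign RNAs that follow the sample through labelling and whose mean signal over 24 probe sets was 6.91, 7.56 and 6.76 on the wild-type and 7.61, 7.32 and 6.49 on the knockout arrays. The array with the lowest spikes, knockout 3, had the highest Vdac1, and the 3 arrays with the highest spikes, knockout 1, wild-type 2 and knockout 2, had the 3 lowest Vdac1 values in the reverse order. Only wild-type 1 and wild-type 3 were out of this order. The difference of the spikes between knockout and wild-type arrays was 0.06 (exact two-sided permutation p = 0.9).

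With the poly-A spike level as a covariate in limma, a fit chosen after seeing the values, the residual SD of Vdac1 was 0.16 in place of 0.33, or 47.2%. As large a drop occurred in 19 of the 643 probe sets (2.95%), and the median probe set kept 104%. The difference of Vdac1 in that fit was -0.09 (95% interval -0.35 to 0.17), and those of Vdac2, Vdac3 and Phb2 were -0.17, -0.09 and -0.27. The differences of all 4 genes thus moved by at most a few hundredths of a log2 unit when the spike level was included. What else varied with the spikes among these hearts was not tested.

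**Figure D3:**
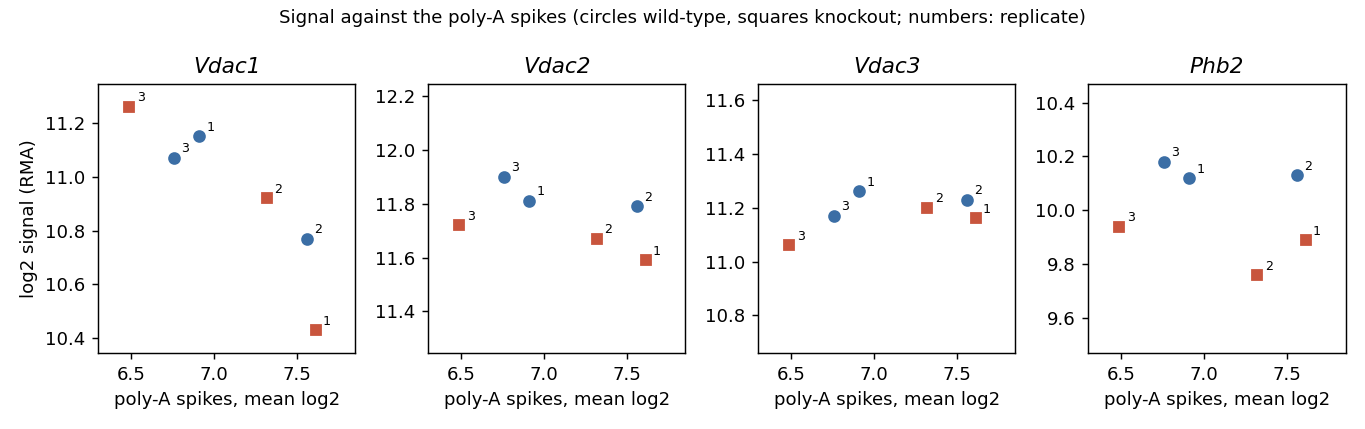
Log2 signal of each gene (vertical axis, the same span in each panel) against the mean log2 signal of 24 poly-A spike probe sets (horizontal axis) on the 6 arrays, wild-type as circles and knockout as squares with replicate numbers. Vdac1 goes from 11.26 on the array with the lowest spikes (6.49) to 10.43 on the one with the highest (7.61), while Phb2 and Vdac2 separate by genotype.

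The hybridisation spikes, which report the handling of the array after labelling, were lower on all knockout arrays, at 9.55, 9.68 and 9.32 against 10.15, 9.84 and 9.69 on wild-type arrays. The difference was -0.38 (exact two-sided permutation p = 0.1, the smallest that 3 against 3 arrays allow). With their level as a covariate the difference of Phb2 was -0.37 (95% interval -0.63 to -0.11), that of Vdac2 -0.24 (-0.50 to 0.02) and that of Vdac1 -0.22 (-1.03 to 0.59). That of Vdac3 turned to 0.02 (-0.22 to 0.26). The 3' minus 5' signal of Actb, which reflects RNA quality and amplification, was 0.74 to 0.77 in wild-type and 0.63, 0.73 and 0.51 in knockout hearts. Its difference was -0.13 (exact two-sided permutation p = 0.1, again the smallest possible). The 3' minus 5' signal of Gapdh had a mean of 0.08 in both genotypes (difference 0.00, exact two-sided permutation p = 1). Their part in the differences of these genes was not tested.

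The order of signal among the genes was nearly the same on all arrays. Probe sets bind with different strength, so this is an order of signal and not of transcript number. Vdac2 gave the highest and Phb2 the lowest signal of the 4 on 6 of 6 arrays. Vdac3 stood above Vdac1 on 5 arrays and below it on 1, knockout 3. In wild-type hearts the lowest Vdac3 (11.17) lay just above the highest Vdac1 (11.15), with means of 11.22 ± 0.05 and 10.99 ± 0.20 (SD, n = 3). In knockout hearts the values of these neighbours overlapped, with means of 11.14 ± 0.07 and 10.87 ± 0.42 (SD, n = 3), a separation within the SD of Vdac1.

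Unequal change between the genes can be read from log2 ratios within an array, from which a shift common to the array drops out. All 6 pairs were compared between genotypes. The widest change was that of Vdac3 over Phb2, at 1.15, 1.10 and 0.99 in wild-type and 1.27, 1.45 and 1.12 in knockout hearts, which overlapped by 1 heart. It was higher in knockout hearts by 0.20 (95% interval -0.10 to 0.49, exact two-sided permutation p = 0.2, adjusted over the 6 pairs 0.6). Without knockout replicate 2 this change was 0.11. Vdac2 over Phb2 was higher by 0.10 (-0.08 to 0.28, exact permutation p = 0.2, adjusted 0.6) and Vdac1 over Phb2 by 0.15 (-0.59 to 0.89, exact permutation p = 0.6, adjusted 0.9). Among the pores, Vdac2 over Vdac3 differed by -0.10 (-0.35 to 0.16, exact permutation p = 0.4, adjusted 0.8), Vdac1 over Vdac2 by 0.05 (-0.59 to 0.70, exact permutation p = 0.9) and Vdac1 over Vdac3 by -0.04 (-0.86 to 0.78, exact permutation p = 1). No pair could reach a p under 0.1 with 3 hearts per genotype, and the intervals leave room for unequal change of the pores in either direction.

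**Figure D4:**
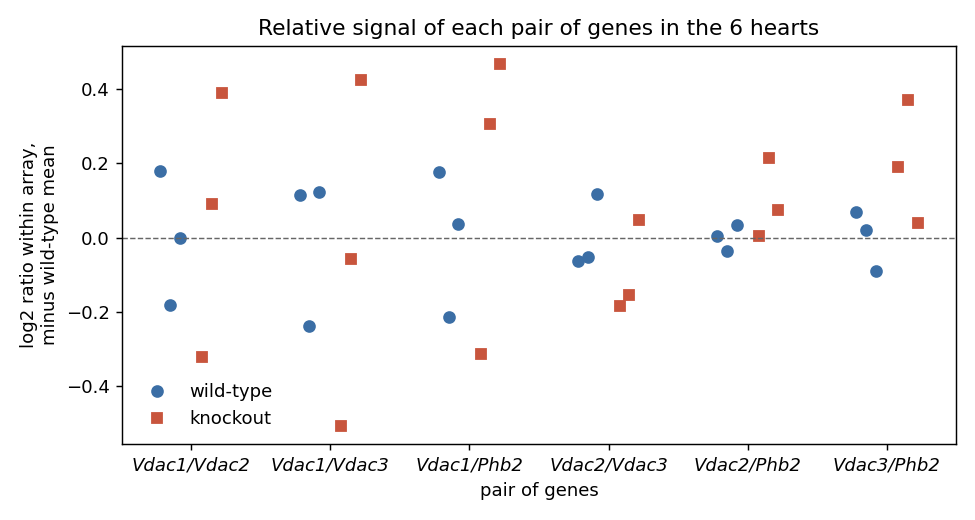
Log2 ratio of each pair of genes within an array, minus the mean of the 3 wild-type arrays for that pair (vertical axis), for wild-type (circles) and knockout hearts (squares) in the order of their replicate numbers. The 3 pairs with Vdac1 spread widest, and the genotypes overlap in all 6 pairs.

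Few other genes of the lists for mitochondrial membranes used here could be read beside them. Inner-membrane genes outside these lists were measured too. Among them were Ghitm, with differences of -0.282 and -0.223 by probe set, Nnt (-0.035) and Cox18 (-0.042). Of a list of 34 genes for the outer membrane and its pore partners, the 3 pores alone were measured, and none of 26 protein import genes or of 12 genes of the Pgc1 coactivator pathway. Of 25 genes for inner-membrane scaffolds, cristae and proteases, Phb2 and Taz were measured, and Taz, which remodels the inner-membrane lipid cardiolipin, differed by 0.00 (95% interval -0.19 to 0.19, adjusted p = 0.994 in limma over the genes). Of 15 inner-membrane carriers 1 was measured, the phosphate carrier Slc25a3. It stood at 13.41, 13.40 and 13.39 in wild-type and 13.27, 13.27 and 13.16 in knockout hearts, without overlap and with a difference of -0.17 (interval -0.33 to -0.01, adjusted p = 0.383 in limma), close to the -0.18 of Vdac2.

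The energy-converting complexes of the inner membrane gave similar values. Of 6 measured ATP synthase subunits 5 had lower and 1 a higher mean, with a median difference of -0.12. Of the respiratory chain 6 subunits were measured, all of complexes I and IV and none of complexes II and III. All 6 had lower means, with a median of -0.13 and differences from -0.32 to -0.02. The median over all 494 genes was 0.01, with 47.6% lower. Without overlap of the groups were 4 and 3 of these subunits, all with knockout values below, where 19.4% of all genes had none in either direction and 9.92% in this one, and limma called 0 of the 12 (0% of all genes, 57 of which, or 11.5%, had an unadjusted p under 0.05, with 5.87% of all genes lower and past it). Atp5o and Atp5j2 had the smallest p of the synthase, with differences of -0.28 and -0.21, and Ndufc1 and Cox8a of the respiratory chain, with -0.18 and -0.32. The difference of Phb2 was as wide as that of Atp5o and those of Vdac1 (-0.12) and Vdac3 (-0.08) lay near the medians of both lists.

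The pattern of Phb2 over the 6 hearts was closest to that of Atp5o, a stalk subunit of ATP synthase. Likeness was measured as the root mean square distance between profiles centred on their own mean, over the 6 arrays. The distance includes the difference between genotypes, so closeness in part restates a like difference and is no separate finding. For Atp5o it was 0.047, where the median gene stood at 0.18. Atp5o read 12.91, 12.94 and 13.00 in wild-type and 12.69, 12.65 and 12.68 in knockout hearts. Next were Ciapin1, a factor of iron-sulphur protein assembly (0.052), and Pdcd6, a calcium-binding protein (0.055). Vdac2 was the 11th closest to Phb2, at 0.081, Vdac3 the 112th and Vdac1 the 427th.

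The pores did not have each other as closest genes. Closest to Vdac2 were Pld3 (0.037) and Lamp1 (0.040), both of lysosomes, and Pdcd6 (0.044), with Phb2 in 40th, Vdac3 in 87th and Vdac1 in 430th place. Closest to Vdac3 were Mpzl2, an adhesion protein (0.027), the translation factor Eif5 (0.029) and the helicase Ddx24 (0.035), all genes with little change between hearts, Mpzl2 also with a dim signal of 3.79 to 3.93. Closest to Vdac1 were Tbl3, of ribosomal RNA processing (0.123), the splicing factor Srsf2 (0.130) and Kti12 (0.147). Tbl3 read 6.05, 5.84 and 6.07 in wild-type and 5.54, 5.99 and 6.02 in knockout hearts, with knockout 1 the lowest heart as for Vdac1. A gene with a flat profile is close to many others by this measure, so the distances of Vdac3 and Vdac1 are not comparable.

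The stretch in front of Phb2, the gene with the widest gap, is shown because a coactivator such as Pgc1b acts through factors bound at promoters. Promoter sequences were taken from RefSeq on GRCm38.p6, which held entries for Phb2, with 1 start, and Vdac1, with 2 starts. The 250 bases upstream of each start were searched on both strands for AAGGTCA, taken here as the half-site of oestrogen-related receptors, and for CCGGAAGT, bound by ETS factors such as GABP. Neither motif contains the other, and their letters occur in 4.08% and 2.88% of 32851 such stretches. The 102 bases between Phb2 and the neighbouring gene Emg1, chr6:124712187-124712288 on the plus strand, hold 1 match to the ETS motif in reverse, in capitals. A second match lies farther upstream, within the annotated span of Emg1.

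Phb2 upstream: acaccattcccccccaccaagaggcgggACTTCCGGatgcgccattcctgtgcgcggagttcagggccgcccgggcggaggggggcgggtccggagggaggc

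AAGGTCA was found once, in reverse, upstream of the second start of Vdac1, which lies 746 bases after the first and inside the gene. The 30 bases around it, chr11:52361480-52361509 on the plus strand, are given with the match in capitals. They are shown because these letters were searched for the class of receptor that Pgc1b is known to assist. Which receptor, if any, binds there was not tested.

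Vdac1 second start: gcgggtctaggTGACCTTcccggcggcgcc

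The letters AAGGTCA do not occur in the 250 bases upstream of Phb2, nor does either motif in those upstream of the first start of Vdac1. Shorter forms were not searched for, and TGACCT does lie upstream of the first start of Vdac1. A match describes the letters and not the binding of a factor, and these arrays carry no measure of binding.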

How the data were processed

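Whole hearts were compared on 3' expression arrays. Per the labels' protocols, total RNA was extracted with Trizol and a column kit and amplified with a whole-transcriptome kit before labelling, so the spread between arrays includes that of amplification. The values deposited by the authors are log2 signals, for which the submitters' processing notes name GCOS, Partek and RMA. Versions, order and a genome build are not given in the sources used here. Values were present in 707 of 45101 rows (1.57%), 643 of them gene probe sets and 64 controls. The other rows were not analysed here. A platform annotation, which can be old, gave 1 symbol for 597 probe sets, several for 26 and none for 20. All 597 matched the RefSeq table of GRCm38.p6.

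The fits used limma 3.58.1 under R 4.3.3 (moderated, two-sided, with no covariate or filter) over the 643 probe sets, and over the 494 genes with the brightest probe set of each. Values computed once per array had exact permutation tests. Number of arrays limits the precision. The fit was tested on simulated data with independent arrays and differences wider than those of the 4 genes. That test does not cover differences as small as theirs. Intervals are 95%, those of ratios from a linear model with equal variances. Named were all 4 members, the 3 genes closest to each, the measured list genes (the 2 of smallest p in lists of more than 5) and measured heart markers. The red cell marker Bpgm and a few inner-membrane genes outside the lists were named as well. Members, lists and rules were chosen with earlier results of these data known. Alternatives were limma with another prior, array weights, scalings, a filter, spike covariates, the replicate block, other choices of probe set and leaving out each array.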

Additional observations from a re-analysis of the deposited data

How the results depend on the processing

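Phb2 and Vdac2 kept a lower mean in knockout hearts in all 14 alternatives of the probe-set comparison and all 16 of the gene comparison, and their groups did not overlap after median centring or a further quantile normalization either. The difference of Phb2 ran from -0.37 to -0.22 (adjusted p in limma from 0.202 to 0.666 over the probe sets) and that of Vdac2 from -0.24 to -0.14 (from 0.235 to 0.715). None of the 4 genes passed the threshold in any alternative run. Vdac1 turned to 0.00497 with array weights (0.02 over the genes) and lay between -0.32 and 0.10 with single arrays left out. Vdac3 turned to 0.02 in both comparisons with the hybridisation spike covariate and lay between -0.11 and -0.04 with single arrays left out, at -0.04 without knockout replicate 3. A prior variance that follows the level called 2 of the 643 probe sets, that of Atp5o and one that is not assigned to a single gene. Leaving out each array gave 42 (without knockout replicate 2) to 88 probe sets at an unadjusted p under 0.05 in place of 66, and 162 to 215 without overlap in place of 120, where fewer values overlap less often. It also gave -0.11 to 0.24 for the ratio of Vdac1 over Vdac2, -0.28 to 0.19 for Vdac1 over Vdac3 and -0.00462 to 0.39 for Vdac1 over Phb2. The other ratios kept their direction, from 0.11 (without knockout replicate 2) to 0.28 for Vdac3 over Phb2, from 0.04 (without knockout replicate 2) to 0.15 for Vdac2 over Phb2 and from -0.17 (without knockout replicate 3) to -0.04 (without wild-type replicate 3) for Vdac2 over Vdac3. Beyond these shifts the cause was not tested.

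Replicate numbers 1 to 3 occur in both genotypes, but no label says that they pair hearts. The deviations of same-numbered hearts correlated at -0.24, -0.10 and 0.19. Over all pairs of a wild-type and a knockout heart they ran from -0.30 (wild-type 2 with knockout 3) to 0.33 (wild-type 2 with knockout 1). With 3 hearts per genotype these correlations cannot decide whether any hearts were handled together. With the replicate block the difference of Phb2 was -0.28 (adjusted p = 0.459 in limma), that of Vdac2 -0.18 (0.556), and 51 probe sets had an unadjusted p under 0.05. The poly-A spike covariate was chosen after seeing the data. Detection calls were not used here.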
